A study of Sus scrofa with 63 samples.

Results

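Liver at 28 days post natum (28 dpn), around weaning, was compared with liver at 1 dpn in pigs whose dams received a protein-rich diet throughout gestation (HP offspring). The arrays were chosen by the stage in their labels alone, which gave 16 arrays at 1 dpn and 15 at 28 dpn, so 31 of 63 in the series, and all 23935 probe-sets that are not controls entered the comparison. The other arrays came from HP fetuses at 94 days post conception (94 dpc, 16 arrays) and HP pigs at 188 dpn (16 arrays), and their levels are given only beside a result. Each array held liver RNA of 1 animal. Arrays of offspring of adequately fed sows (AP) were not used here, so no value describes an effect of the diet.

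All animals were German Landrace, and those of both stages share the HP gestation. The newborns were the lightest and the heaviest sib of a litter and were killed by injection the day after birth. The older piglets were sibs of middling growth that had been moved to foster sows fed adequately in gestation, with the males castrated, and they were fasted overnight before electrical stunning and bleeding. Age therefore goes together with nursing by another sow, fasting, the way of killing and the choice by weight, and these cannot be told apart here. The control signals of the arrays, given below, differed between the stages as well and also go together with age. Sex, mother and sib pair are not in the labels and were not used, so the animals are not all independent and the p-values measure the spread between the arrays as they are.

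Before birth the liver makes blood cells and is supplied with nutrients through the placenta. After birth blood formation moves to the bone marrow, and the hepatocytes, the main cells of the organ, take up the handling of milk fat, sugars and foreign compounds while the resident macrophages, lymphocytes and the gut flora build up. Fetal products such as alpha-fetoprotein are shut down over the same weeks, and the enzymes of the cytochrome P450 families, which oxidise drugs and steroids, appear in turn.

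The controls on the arrays differed between the stages before any gene was considered. The first of the 18S ribosomal RNA probe-sets had log2 signals from 8.20 to 11.23 (mean 9.04 ± 0.83, SD, n = 16) at 1 dpn and from 12.50 to 14.35 (mean 13.60 ± 0.42, n = 15) at 28 dpn, with no overlap, whereas the second went the other way, with a mean of 12.18 ± 0.36 at 1 dpn and 10.19 ± 0.81 at 28 dpn. Both 28S probe-sets were higher at 28 dpn without overlap, with means of 12.60 and 12.84 at 1 dpn and 14.79 and 14.74 at 28 dpn. A drop of signal from the 3′ to the 5′ end of an RNA marks shortened RNA or shortened copies. For actin the 3′ probe-set exceeded the 5′ probe-set by 0.75 to 3.16 (mean 1.59 ± 0.51) at 1 dpn and by 3.15 to 4.02 (mean 3.66 ± 0.30) at 28 dpn on the log2 scale, and array HP 23 alone, at 3.16, reached the range of the older stage. The same difference rose from 0.54 ± 0.23 to 0.76 ± 0.15 for GAPDH and from −0.13 ± 0.16 to 0.47 ± 0.27 for elongation factor 1 alpha.

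The RNAs added to every sample before labelling moved too, and not all in the same direction. Their mean 3′ minus 5′ difference was 0.94 ± 0.17 at 1 dpn and 1.29 ± 0.45 at 28 dpn (adjusted p = 0.0086, two-sided permutation test with 100000 resamples over 14 control measures). It rose from 1.39 to 2.57 for dap and from 1.86 to 2.93 for thr, and fell from −0.11 to −0.62 for lys and from 0.62 to 0.27 for phe. The median signal of an array lay between 7.05 and 7.41 at 1 dpn and between 6.69 and 7.01 at 28 dpn, with no overlap, while the background, the level of the controls that have no target, was 5.83 ± 0.32 and 5.65 ± 0.33 (p = 0.127). The other 13 measures passed at an adjusted p under 0.05. Adding the dap and thr differences to the fit left 3058 rises and 4893 falls among the 13078 probe-sets tested and ended 20 calls of the 238 named genes, and keeping the 7 older arrays within the newborn range of the added RNAs left 3228 and 5108 and ended 16. Neither turned a sign. The actin difference had a larger effect and is given beside the results it moved.

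**Figure D1:**
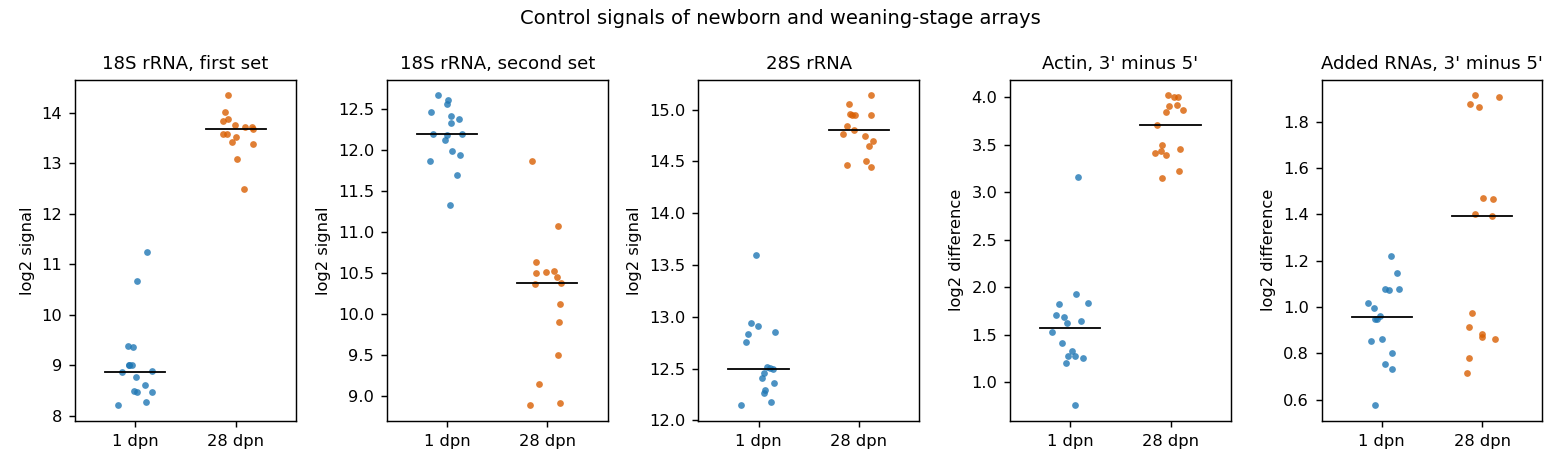
Control signals on the 16 arrays at 1 dpn and the 15 arrays at 28 dpn, with 1 point per array and a line at the median; the vertical axes give log2 signals for the rRNA probe-sets and log2 differences, 3′ minus 5′, for actin and the added RNAs. The first 18S set and the 28S set separate the stages, the second 18S set runs the other way, and the added RNAs overlap while spreading from 0.72 to 1.91 at 28 dpn.

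Of 13078 probe-sets tested, 3764 rose from 1 dpn to 28 dpn and 5611 fell, so 71.7% were called at an adjusted p under 0.05 in limma. With so many calls, the size of a change and the overlap of the arrays are given beside the call. At least 2-fold changes (1 on the log2 scale) were reached by 1058 of those that rose and 2304 of those that fell, 4-fold changes by 183 and 432, and 8-fold changes by 52 and 101. The arrays did not overlap for 647 probe-sets higher at 28 dpn and 882 lower. The balance of directions depended on the scaling, since 40.1% of the calls rose with the deposited values, 51.5% after quantile normalization and 54.6% with each array centred on its median. Newborn arrays varied more. The standard deviation was higher at 1 dpn for 70.7% of the probe-sets, with a median of 0.41 against 0.33 at 28 dpn.

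For each of 5360 gene symbols the probe-set with the highest mean signal was taken. Of these genes 34.1% rose (1826) and 36.9% fell (1980), and the arrays did not overlap for 6.88% (369) that were higher at 28 dpn and 5.56% (298) that were lower. The median log2 change over the genes was −0.02, against −0.14 over the probe-sets, and it shifted to 0.08 with quantile normalization and 0.21 with centring. The fit with the actin difference as a covariate kept fewer calls, 936 rises (17.5%) and 1005 falls (18.8%), and that difference nearly separates the stages. These shares are the background for the lists of genes below, where counts of rises and falls in brackets are those of another scaling or of the actin covariate. In bulk liver, fewer cells of a type and less RNA per cell cannot be told apart.

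**Figure D2:**
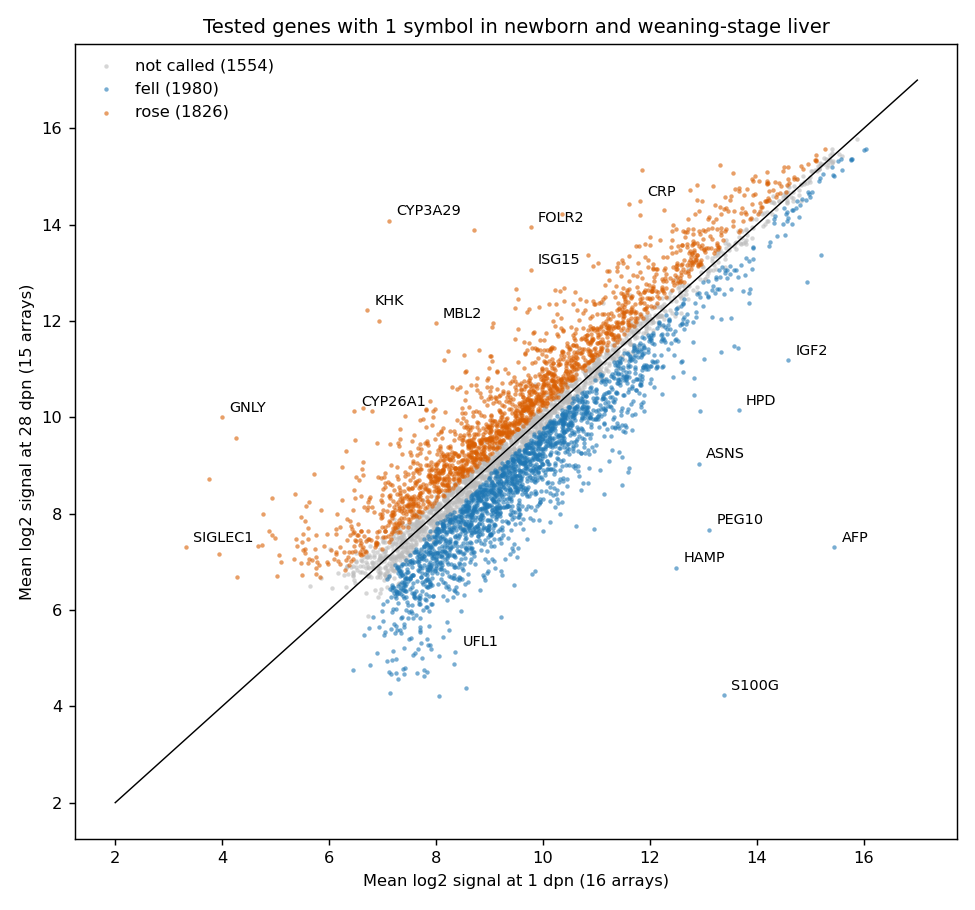
Mean log2 signal of each of 5360 genes at 1 dpn (horizontal axis, 16 arrays) and at 28 dpn (vertical axis, 15 arrays), coloured by the call, with the diagonal of equal signal. AFP, S100G, PEG10 and HAMP lie far below the diagonal and CYP3A29, KHK and GNLY far above it.

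The genes of fetal liver and imprinted growth control showed the largest falls of any list. Of 8 tested genes 6 fell and none rose, with a median log2 change of −2.45, and 3 of the 8 fell without overlap. Over all genes 36.9% fell. PEG3 and IGF2R were dim at 28 dpn and passed the filter through the newborn stage, so these shares are not strictly comparable. AFP, the albumin-like carrier protein of the fetus, had log2 signals from 15.15 to 15.87 (median 15.44) at 1 dpn and from 6.28 to 8.50 (median 7.32) at 28 dpn. All 15 older arrays lay below all 16 newborn arrays, with a log2 change of −8.14 (SE 0.15, adjusted p = 5.02e-29), a 283-fold fall. Its level had been 15.96 at 94 dpc and was 3.47 at 188 dpn, where 1 of 16 arrays was above background.

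IGF2, the imprinted growth factor of the fetus, ranged from 13.98 to 15.04 (median 14.55) at 1 dpn and from 10.53 to 11.84 (median 11.16) at 28 dpn, again without overlap, a log2 change of −3.40 (SE 0.13, adjusted p = 1.15e-20). All 9 probe-sets named IGF2 fell, by 0.48 to 3.95 on the log2 scale. IGF2R, which binds IGF2 and carries it to the lysosome, ranged from 6.68 to 8.99 (median 8.19) at 1 dpn and from 5.76 to 7.47 (median 6.54) at 28 dpn, a log2 change of −1.50 (SE 0.19, adjusted p = 3.68e-08). PEG3, an imprinted zinc finger gene, changed by −3.84 (SE 0.32, adjusted p = 3.12e-12), with 2 of 15 older arrays above background. Signals under the background have no order, and with them raised to that level the log2 change was −2.38. PEG10, an imprinted gene derived from a retrotransposon, had a median of 13.87 at 1 dpn and 7.73 at 28 dpn and changed by −5.43 (SE 0.57, adjusted p = 5.73e-10). The newborn animal HP 31, at 6.26, lay within the range of the older stage, and HP 20, at 9.31, was the next lowest newborn. GPC3, a heparan sulphate proteoglycan of fetal liver, and GRB10, an imprinted adaptor of the insulin receptor, had log2 changes of −0.10 and −0.11 and were not called. A fit with the actin difference lost the call of IGF2R.

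Most enzymes of drug and steroid metabolism rose with the deposited values. Among the cytochrome P450 enzymes and their partners 20 of 30 tested genes rose and 3 fell, against 34.1% and 36.9% of all genes. The median log2 change was 0.87, and the counts were 19 and 5 with quantile normalization and 7 and 1 with the actin covariate. CYP3A29 and CYP2A19 were dim at birth and passed the filter through the older stage, so these shares are not strictly comparable. CYP3A29, a member of the CYP3A family that oxidises many drugs and steroids, ranged from 5.20 to 10.06 (median 6.82) at 1 dpn and from 13.40 to 14.53 (median 14.15) at 28 dpn. No newborn came within 3 log2 units of an older piglet, and the log2 change was 6.96 (SE 0.38, adjusted p = 1.49e-16), a 124-fold rise. CYP3A46 changed by 5.17 and CYP3A39 by 3.29, both without overlap. The sequences of the CYP3A genes are alike, so the value of each single gene is uncertain. CYP2A19, an enzyme that oxidises skatole, ranged from 5.73 to 9.18 (median 6.88) at 1 dpn and from 9.18 to 13.77 (median 12.28) at 28 dpn, a log2 change of 5.07 (SE 0.36, adjusted p = 1.24e-13), and the newborn HP 31 and the older piglet HP 39 met at 9.18.

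The rest of the list moved less. CYP2C49 (log2 change 1.74) and CYP2C42 (1.56), of the CYP2C drug oxidases, CYP2E1 (0.91), which oxidises ethanol, GSTA1 (1.93), a glutathione transferase, and EPHX1 (1.13), an epoxide hydrolase, rose. SULT1E1, the oestrogen sulphotransferase, fell by 1.55 (adjusted p = 1.14e-08), and CES3 and CYB5A fell by 0.55 and 0.17. POR, the reductase that feeds electrons to all microsomal P450 enzymes, changed by 0.10 and CYP1A1 by −0.35, neither of them called. NR1I2, the pregnane X receptor that drives CYP3A genes, went the other way from them, with log2 signals from 7.89 to 9.71 (median 9.31) at 1 dpn and from 5.53 to 8.19 (median 7.67) at 28 dpn, a log2 change of −1.83 (SE 0.21, adjusted p = 2.39e-09). The mean log2 level of the 30 genes (± SD over arrays) was 9.74 ± 0.18 in fetuses, 11.46 ± 0.31 in newborns, 12.61 ± 0.18 around weaning and 13.18 ± 0.17 at 188 dpn. The call of NR1I2 was lost when the actin difference was added to the fit.

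Retinoid genes went both ways. Of 9 tested genes 5 rose and 3 fell (3 and 2 with the actin covariate), against 34.1% and 36.9% of all genes. The median log2 change of 0.41 fell to −0.02 with the actin difference in the fit. CYP26A1 was dim at birth and RARB at 28 dpn. Each passed the filter through the other stage, so these shares are not strictly comparable. CYP26A1, which breaks down retinoic acid, ranged from 4.98 to 8.67 (median 6.41) at 1 dpn and from 9.12 to 10.65 (median 10.16) at 28 dpn, without overlap, a log2 change of 3.67 (SE 0.28, adjusted p = 6.75e-13). RARRES1, named for its induction by retinoids, rose by 2.41 (SE 0.17, adjusted p = 1.13e-13). RARB, a retinoic acid receptor, and DHRS4, a retinal reductase, fell, with log2 changes of −2.51 (SE 0.37, adjusted p = 4.97e-07) and −2.36 (SE 0.20, adjusted p = 4.09e-12). RARB was above background on 7 of 15 older arrays, and its change was −1.60 with signals raised to the background. RBP4, the plasma carrier of retinol, had a log2 change of 0.00 and was not called. RARB was no longer called once the actin difference entered the fit.

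Among 16 tested genes of fructose use and glycolysis 4 rose and 4 fell (9 and 3 with centring and 2 and 1 with the actin covariate). Of these genes KHK changed by far more than the others. KHK was dim at birth and passed the filter through the older stage. KHK, ketohexokinase, which commits fructose to metabolism, ranged from 4.97 to 7.53 (median 6.87) at 1 dpn and from 11.87 to 12.92 (median 12.23) at 28 dpn. Every older piglet exceeded every newborn by more than 4 log2 units, a change of 5.51 (SE 0.18, adjusted p = 7.9e-22) or 45.6-fold. TKFC, a kinase of the same pathway, rose by 0.89 (SE 0.22, adjusted p = 0.000721), and PFKP, a phosphofructokinase, by 1.07 (SE 0.18, adjusted p = 2.4e-06). SLC2A2, the glucose and fructose carrier of hepatocytes, fell by 0.88 (adjusted p = 2.07e-07). The glycolytic enzymes GAPDH (−0.13), PGK1 (0.15) and GPI (−0.03) were not called. When the fit held the actin difference, PFKP and SLC2A2 no longer passed.

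Gluconeogenesis and glycogen genes moved by less than 2-fold except for MDH1 and FBP2. Among 12 tested gluconeogenic genes 3 rose and 3 fell, and the split depended on the scaling, since 2 rose and 5 fell with quantile normalization, 7 and 2 with the arrays centred on the median, and 1 and 1 with the actin difference in the fit. PCK1, the cytosolic enzyme that makes phosphoenolpyruvate, ranged from 12.44 to 14.60 (median 13.53) at 1 dpn and from 13.55 to 14.76 (median 14.36) at 28 dpn, a log2 change of 0.83 (SE 0.15, adjusted p = 6.48e-06). PCK2, its mitochondrial form, rose by 0.65 (SE 0.12, adjusted p = 2.11e-05) in its brightest probe-set, but its other 2 probe-sets fell and the mean over the 3 changed by −0.43. MDH1, cytosolic malate dehydrogenase, fell without overlap, with a log2 change of −1.21 (SE 0.12, adjusted p = 3.34e-10), and FBP2, the muscle-type fructose bisphosphatase, changed by −1.10 (SE 0.37, adjusted p = 0.00847). In the glycogen list 1 of 10 tested genes rose and 5 fell (3 and 2 with centring and 0 and 2 with the actin covariate), with a median log2 change of −0.20. The falls were PHKB (−0.72), PHKG2 (−0.32) and PHKA2 (−0.28), subunits of phosphorylase kinase, PGM2 (−0.63) and GYG1, the glycogen primer (−0.42). PYGL, liver glycogen phosphorylase, rose by 0.23. The actin difference as a covariate ended the calls of FBP2, GYG1, PCK1, PCK2 and PGM2. In that fit the log2 change was 0.30 for PHKG2, the opposite sign.

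Fatty acid oxidation genes were split in both directions. With the deposited values 11 of 29 tested genes rose and 9 fell, with a median log2 change of 0.02, while 8 rose and 12 fell with quantile normalization, 14 and 6 with the arrays centred on the median, and 2 and 9 with the actin difference in the fit. The rises included ACAA2 and ECI1, which act late in the mitochondrial spiral, with log2 changes of 1.70 (SE 0.29, adjusted p = 4.04e-06) and 1.57 (SE 0.12, adjusted p = 2.32e-13). ECHS1, enoyl-CoA hydratase, rose without overlap by 0.86 (SE 0.09, adjusted p = 7.86e-10). With overlapping ranges, SLC22A5, the carnitine importer, rose by 1.02 (SE 0.20, adjusted p = 4.52e-05), and CPT1A, the gate for fatty acids into mitochondria, by 0.67 (SE 0.17, adjusted p = 0.000692). The falls included both subunits of the trifunctional protein, HADHA (−0.66) and HADHB (−0.78), the long-chain dehydrogenases ACADL (−0.65) and ACADVL (−0.49), and the electron carriers ETFA (−0.69) and ETFDH (−0.54). ETFB, the partner of ETFA, rose by 0.75. PPARA, the fatty acid receptor that drives the pathway, ranged from 5.36 to 8.89 (median 7.28) at 1 dpn and from 2.37 to 6.21 (median 5.34) at 28 dpn, with 14 of 16 newborn and 5 of 15 older arrays above background, a log2 change of −2.21 (SE 0.35, adjusted p = 1.45e-06), or −1.38 with signals raised to the background. Adding the actin difference ended the calls of ACAA2, PPARA and SLC22A5.

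Fat and cholesterol synthesis genes rose more often than they fell with the deposited values. In the list of fatty acid and triglyceride synthesis 7 of 17 tested genes rose and 1 fell (3 and 0 with the actin covariate). That is 41.2% up, near the 34.1% of all genes, and 5.88% down, against 36.9%. The median log2 change was 0.29. DGAT2, which completes triglycerides, ranged from 8.89 to 10.84 (median 9.86) at 1 dpn and from 11.82 to 12.66 (median 12.40) at 28 dpn, without overlap, a log2 change of 2.35 (SE 0.16, adjusted p = 4.26e-14). The desaturases FADS2 and FADS1, of long polyunsaturated fatty acid synthesis, rose by 1.32 (SE 0.29, adjusted p = 0.000129) and 1.02 (SE 0.31, adjusted p = 0.00375), and PNPLA2, a triglyceride lipase on the same list, by 0.78 (SE 0.18, adjusted p = 0.000289). FASN (0.37), SCD (−0.30), ELOVL6 (−0.10) and ME1 (0.29), the core of new fatty acid synthesis, were not called. PGD, of the pentose phosphate path, fell by 0.70. A fit with the actin difference lost the calls of FADS1 and PNPLA2.

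Among the cholesterol genes 9 of 17 tested genes rose and 0 fell, against 34.1% and 36.9% of all genes. The median log2 change was 0.60, but the direction did not hold with the actin difference in the fit. There 1 rose, 2 fell and the median was −0.30. SREBF2, the transcription factor of the pathway, ranged from 9.24 to 10.51 (median 9.90) at 1 dpn and from 10.97 to 11.97 (median 11.32) at 28 dpn, without overlap, a log2 change of 1.59 (SE 0.14, adjusted p = 7.79e-12) that kept its call in that fit. MSMO1, a sterol oxidase, ranged from 8.16 to 13.89 (median 10.87) at 1 dpn and from 12.37 to 13.94 (median 13.26) at 28 dpn, a log2 change of 2.17 (SE 0.40, adjusted p = 1.52e-05), and its second, dimmer probe-set fell by 0.82. FDFT1, squalene synthase, and SQLE, squalene epoxidase, rose by 1.15 (SE 0.26, adjusted p = 0.000185) and 1.00 (SE 0.34, adjusted p = 0.00963). HMGCS1, an early enzyme of the pathway, had a log2 change of 0.16 and was not called. The newborns spread widely. The mean level of the list ran from 9.70 on HP 20 to 11.76 on HP 23 at 1 dpn, against 10.31 to 11.62 at 28 dpn, and the level at 94 dpc, 11.90 ± 0.19, was above both. The call of FDFT1 was lost when the actin difference was added to the fit. In that fit the log2 change was −0.0489 for MSMO1 and −0.64 for SQLE, the opposite sign.

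Of the bile acid genes 4 of 6 rose and 2 fell (2 and 1 with the actin covariate), beside 34.1% and 36.9% of all genes. CYP7A1 was dim at birth and passed the filter through the older stage, so these shares are not strictly comparable. CYP7A1, the rate-limiting enzyme of bile acid synthesis, ranged from 0.43 to 9.61 (median 5.76) at 1 dpn and from 5.67 to 10.09 (median 7.64) at 28 dpn, above background on 7 of 16 newborn and 15 of 15 older arrays, a log2 change of 2.09 (SE 0.59, adjusted p = 0.00209), or 1.08 with signals raised to the background. CYP27A1, of the alternative route, rose by 0.94 (SE 0.13, adjusted p = 1.09e-07), although 2 of its 3 probe-sets were not called. SLC10A1, which takes bile acids up from blood, rose by 0.92. ABCB11, the pump that exports bile salts into bile, ranged from 8.26 to 11.60 (median 9.65) at 1 dpn and from 6.75 to 8.18 (median 7.40) at 28 dpn, without overlap, a log2 change of −2.24 (SE 0.21, adjusted p = 6.51e-11), and ABCC2, the exporter of conjugates, fell by 0.98. Those were all 6 tested genes together with AMACR, which rose by 0.89. ABCC2 and CYP7A1 were no longer called once the actin difference entered the fit.

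Lipoprotein genes leaned to a fall that scaling turned, since 4 of 18 tested genes rose and 6 fell, with a median log2 change of −0.09, whereas 5 rose and 7 fell with quantile normalization, 7 and 4 with the arrays centred on the median, and 1 and 4 with the actin difference in the fit. LIPC, hepatic lipase, ABCA1, which loads cholesterol onto apolipoprotein A1, and MTTP, which loads fat onto apolipoprotein B, changed by −1.43 (SE 0.10, adjusted p = 1.24e-13), −1.31 (SE 0.16, adjusted p = 1.37e-08) and −0.96 (SE 0.19, adjusted p = 4.18e-05). APOB itself fell by 0.64, APOA1 changed by −0.09 without a call, and VLDLR, a receptor for fat-rich particles, rose by 1.23 (SE 0.13, adjusted p = 8.3e-10).

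Amino acid breakdown held some of the largest single changes without moving as a list. Among 22 tested genes of amino acid catabolism and the urea cycle 7 rose and 8 fell (8 and 5 with centring and 3 and 3 with the actin covariate). HPD, an early enzyme of tyrosine breakdown, ranged from 12.66 to 14.88 (median 13.65) at 1 dpn and from 9.80 to 10.89 (median 9.99) at 28 dpn, without overlap, a log2 change of −3.51 (SE 0.19, adjusted p = 1.85e-16) or 11.4-fold. Its mean was 4.55 at 94 dpc and 11.11 at 188 dpn, so the newborn level stood above all other stages. FAH, the last enzyme of the same path, rose by 1.16 (SE 0.10, adjusted p = 8.78e-12). DDO, which oxidises D-aspartate, ranged from 0.00 to 6.18 (median 4.45) at 1 dpn and from 6.18 to 8.34 (median 7.02) at 28 dpn, above background on 2 of 16 newborn and all 15 older arrays, a log2 change of 3.21 (SE 0.48, adjusted p = 4.63e-07), or 1.30 with signals raised to the background. Signals under 1 were deposited as 0, so the newborn level is only bounded by the background.

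The arginases fell together. ARG1, the last enzyme of the urea cycle, ranged from 12.79 to 15.09 (median 13.96) at 1 dpn and from 11.95 to 13.48 (median 12.26) at 28 dpn, a log2 change of −1.48 (SE 0.21, adjusted p = 3e-07), and ARG2, the mitochondrial form, changed by −2.20 (SE 0.33, adjusted p = 5.41e-07). Of the other urea cycle enzymes OTC fell by 0.69 and CPS1 by 0.47, while ASL (−0.18) and ASS1 (−0.17) were not called. TAT, tyrosine aminotransferase, changed by −0.63 (SE 0.24, adjusted p = 0.0228), and its call was lost when the newborn arrays HP 25, HP 27 and HP 28 were left out. CDO1 (1.20), of cysteine breakdown, and HAAO (1.08), of the kynurenine path, rose. When the fit held the actin difference, ARG2 and TAT no longer passed.

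Branched-chain amino acid breakdown was split too, with 4 of 18 tested genes up and 5 down, or 6 and 4 with centring and 3 and 7 with the actin covariate. DLD and DBT, subunits of the branched-chain dehydrogenase, changed by −1.15 (SE 0.17, adjusted p = 4.79e-07) and −0.84 (SE 0.14, adjusted p = 5.68e-06), while BCKDHA (0.02) and BCKDHB (0.18), the other subunits, were not called. HSD17B10, an enzyme of isoleucine breakdown, rose without overlap by 0.95 (SE 0.10, adjusted p = 2.33e-10). In methyl group and sulphur amino acid metabolism 5 of 15 tested genes rose and 5 fell (0 and 2 with the actin covariate). SHMT1, which makes one-carbon units from serine, rose by 1.37 (SE 0.14, adjusted p = 3.93e-10) in its brighter probe-set and fell in the other. AHCY, MTR and CTH, which clear or remake homocysteine, changed by −0.84 (SE 0.14, adjusted p = 3.74e-06), −0.83 (SE 0.23, adjusted p = 0.0021) and −0.82 (SE 0.22, adjusted p = 0.00134). The actin difference as a covariate ended the calls of AHCY and SHMT1. In that fit the log2 change was 0.27 for MTR, the opposite sign.

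Genes of amino acid synthesis, many of them targets of the stress factor ATF4, fell more often than they rose with the deposited values. Over all genes 36.9% fell and 34.1% rose. Of 20 tested genes 3 rose and 11 fell (2 and 4 with the actin covariate), with a median log2 change of −0.39 that was −0.12 with the actin covariate, and 2 fell without overlap. ASNS, asparagine synthetase, ranged from 11.99 to 13.96 (median 12.92) at 1 dpn and from 8.26 to 9.79 (median 9.14) at 28 dpn, without overlap, a log2 change of −3.88 (SE 0.19, adjusted p = 1.15e-17) or 14.7-fold, from 13.26 at 94 dpc to 7.75 at 188 dpn. PHGDH, the first enzyme of serine synthesis, changed by −1.77 (SE 0.22, adjusted p = 1.91e-08), ALDH18A1, of proline synthesis, by −1.60 (SE 0.13, adjusted p = 3.32e-12) without overlap, and SLC3A2, the shared chain of several amino acid carriers, by −1.35 (SE 0.12, adjusted p = 3.4e-11). PSAT1, the next step of serine synthesis after PHGDH, went the other way by 0.70 (SE 0.28, adjusted p = 0.0259), as did ATF5 (1.30). ATF4 itself fell by 0.26, and DDIT3 (0.04) and ATF3 (0.03) were not called. Adding the actin difference ended the call of SLC3A2.

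Most chaperones of the endoplasmic reticulum, where secreted proteins fold, fell with the deposited values. In this list 3 of 21 tested genes rose and 15 fell (5 and 12 with centring and 1 and 6 with the actin covariate). The median log2 change was −0.54, and 15 of 21 is 71.4%, beside 36.9% of all genes. UFL1 was dim at 28 dpn and passed the filter through the newborn stage, so these shares are not strictly comparable. HSPA13, a microsomal chaperone, ranged from 9.61 to 12.29 (median 10.97) at 1 dpn and from 6.66 to 8.72 (median 7.71) at 28 dpn, without overlap, a log2 change of −3.26 (SE 0.23, adjusted p = 6.9e-14). UFL1, the ligase that attaches UFM1 at the endoplasmic reticulum, had a log2 change of −3.22 (SE 0.30, adjusted p = 4.8e-11), with 7 of 15 older arrays above background, or −2.41 with signals raised to the background. DNAJC3, DNAJB11, HSP90B1 and HYOU1 fell, with log2 changes of −1.77, −1.36, −1.10 and −1.08, and HSPA5, the central chaperone BiP, fell by 0.42. CALR, the calcium-binding chaperone calreticulin, was an exception, ranging from 9.58 to 10.92 (median 10.23) at 1 dpn and from 11.21 to 12.36 (median 12.01) at 28 dpn, without overlap and by 1.68 (SE 0.12, adjusted p = 2.59e-13). Its partner CANX fell by 0.52. PDIA4 had a log2 change of 0.10 in its brightest probe-set, which was not called, and fell by 1.30 and 3.03 in the other 2.

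The cytosolic heat shock proteins leaned the same way with the deposited values, where 3 of 20 tested genes rose and 11 fell, with a median log2 change of −0.29, but 4 rose and 11 fell with quantile normalization, 9 and 7 with the arrays centred on the median, and 3 and 4 with the actin difference in the fit. HSPA4 and HSPH1, which act as exchange factors for HSP70, changed by −1.57 (SE 0.17, adjusted p = 1.72e-09) and −1.26 (SE 0.22, adjusted p = 9.09e-06). Among the small heat shock proteins CRYAB ranged from 8.57 to 11.07 (median 9.45) at 1 dpn and from 11.10 to 11.97 (median 11.63) at 28 dpn, without overlap, a log2 change of 2.15 (SE 0.18, adjusted p = 2.62e-12), and HSPB8 rose without overlap by 1.43 (SE 0.17, adjusted p = 4.55e-09). HSPB1 had a log2 change of 0.27 and was not called. A fit with the actin difference lost the call of HSPH1.

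Genes of the growth hormone and IGF axis went both ways. In this list 6 of 13 tested genes rose and 3 fell (3 and 1 with the actin covariate), with a median log2 change of 0.32. Over all genes 34.1% rose and 36.9% fell. IGFALS and IGFBP6 were dim at birth and passed the filter through the older stage, and IGF2R was dim at 28 dpn. These shares are therefore not strictly comparable, and 7 more genes on the array were too dim to be tested. IGF2, IGF2R and IGF1R (log2 change −0.94) fell. IGF1, the growth factor made under growth hormone, rose by 1.03 (SE 0.30, adjusted p = 0.0026), GHR, the growth hormone receptor, by 0.54 (SE 0.15, adjusted p = 0.00211), and STAT5A, which relays its signal, by 0.92 (SE 0.14, adjusted p = 1e-06). IGFALS, which holds IGF1 in the blood, ranged from 3.83 to 8.08 (median 5.24) at 1 dpn and from 3.79 to 8.88 (median 7.11) at 28 dpn, above background on 4 of 16 newborn and 14 of 15 older arrays, a log2 change of 1.64 (SE 0.40, adjusted p = 0.000468), or 1.13 with signals raised to the background. IGFBP6, an IGF2-binding protein, rose by 1.92 (SE 0.28, adjusted p = 4.91e-07), or 1.26 with signals raised to the background, as 7 of 16 newborn arrays were above it, while IGFBP2 (0.40) and IGFBP1 (0.28) were not called. The calls of IGF2R and IGFALS were lost when the actin difference was added to the fit.

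Glucocorticoid signalling genes were split, with 8 of 21 tested genes up and 7 down, or 3 and none with the actin difference in the fit. NR3C1, the glucocorticoid receptor, ranged from 7.64 to 8.93 (median 8.14) at 1 dpn and from 5.78 to 7.90 (median 7.15) at 28 dpn, a log2 change of −1.13 (SE 0.16, adjusted p = 3.49e-07). FKBP5, a classic target that restrains the receptor, changed by −1.13 (SE 0.22, adjusted p = 3.44e-05). CEBPD, another target, rose by 1.42 (SE 0.16, adjusted p = 4.22e-09), with all 3 of its probe-sets up, and SERPINA6, the cortisol carrier of plasma, by 1.31 (SE 0.27, adjusted p = 7.49e-05). HSD11B1, which regenerates cortisol, rose by 1.05 (SE 0.11, adjusted p = 6.1e-10). TSC22D3, a target induced in many tissues, had a log2 change of −0.01. FKBP5, NR3C1 and SERPINA6 were no longer called once the actin difference entered the fit.

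Among 16 tested genes of nutrient sensing 4 rose and 8 fell (7 and 6 with quantile normalization, 6 and 5 with centring and 2 and 4 with the actin covariate). PRKAA1, a catalytic subunit of the energy sensor AMPK, had a log2 change of −1.63 (SE 0.15, adjusted p = 6.1e-11), without overlap, and all 3 of its probe-sets fell. PPARGC1A, a coactivator of gluconeogenesis and mitochondrial genes, changed by −1.70 (SE 0.25, adjusted p = 3.86e-07). EIF4E, the cap-binding protein, and RHEB, the activator of mTOR, changed by −1.06 (SE 0.16, adjusted p = 5.02e-07) and −0.82 (SE 0.10, adjusted p = 6.49e-09). The clock genes were tested in 8 cases, with 3 rises and 3 falls. RORA, an activator of the clock, and ARNTL, its core factor, fell without overlap, with log2 changes of −2.25 (SE 0.26, adjusted p = 4.99e-09) and −2.20 (SE 0.27, adjusted p = 1.15e-08). DBP, an output factor with a strong daily rhythm, rose without overlap by 1.28 (SE 0.12, adjusted p = 9.17e-11). CRY2, a repressor, rose by 1.07 (SE 0.20, adjusted p = 1.22e-05), and its ranges overlapped. The hour of sampling is not in the labels. When the fit held the actin difference, PPARGC1A no longer passed.

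Of 15 liver transcription factors 4 rose and 7 fell (3 and 2 with the actin covariate), although the median log2 change turned from −0.10 to 0.12 with centring. HNF4A, the central hepatocyte factor, rose by 0.66 (SE 0.11, adjusted p = 5.9e-06) in its brighter probe-set and fell in the other. GATA4 rose by 0.79 and NR1H3, the oxysterol receptor, by 0.81. RXRA, the partner of many nuclear receptors, and NR5A2, a regulator of bile acid genes, fell by 0.96 and 1.00, whereas CEBPA (0.04), CEBPB (0.21) and FOXA2 (−0.03) were not called.

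Iron handling was dominated by HAMP, hepcidin, the liver hormone that blocks iron release into blood. Its log2 signals ranged from 9.92 to 14.96 (median 12.38) at 1 dpn and from 1.93 to 12.97 (median 6.46) at 28 dpn, with 11 of 15 older arrays above background and a log2 change of −5.61 (SE 0.78, adjusted p = 1.62e-07). HP 39, at 12.97, lay above the newborn median and the next highest piglet of that stage was at 10.14, while HP 40, at 1.93, was the lowest of all. The means at 94 dpc and 188 dpn were 12.47 and 13.36, so the low level belonged to 28 dpn among the 4 stages. IREB2 and ACO1, the iron regulatory proteins, changed by −1.70 (SE 0.16, adjusted p = 7.38e-11) and −0.56 (SE 0.14, adjusted p = 0.000876). Of 12 tested genes 3 rose and 6 fell (5 and 3 with centring and 1 and 4 with the actin covariate). TF, transferrin, fell by 0.42 in its brighter probe-set and rose in the other, FTH1, the ferritin heavy chain, rose by 0.29, and HMOX1, which opens haem, rose by 0.67 (SE 0.13, adjusted p = 4.88e-05).

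S100G, a calcium-binding protein known from the gut as a vitamin D target, had the largest fitted fall among the genes, though most older arrays were at background. Its log2 signals ranged from 10.65 to 15.14 (median 13.77) at 1 dpn and from 2.30 to 6.93 (median 4.12) at 28 dpn, with 4 of 15 older arrays above background and a log2 change of −9.15 (SE 0.53, adjusted p = 9.84e-16). With signals raised to the background it was −7.48, smaller in size than the change of AFP, which was above background on all 31 arrays. A second, dimmer probe-set fell by 1.63. The level had been 14.80 at 94 dpc. The newborns HP 28, HP 30 and HP 31 were the lowest of their stage, at 10.72, 10.65 and 11.50. SELENBP1, a selenium-binding protein, rose by 0.76 (SE 0.15, adjusted p = 4.03e-05), and SLC39A14, a zinc and iron importer, changed by −0.64 (SE 0.18, adjusted p = 0.00198). MT1A, a metallothionein, had a log2 change of −0.34 and was not called. The actin difference as a covariate ended the calls of SELENBP1 and SLC39A14.

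Most antioxidant enzymes rose with the deposited values. In this list 17 of 24 tested genes rose and 3 fell (5 and 1 with the actin covariate), with a median log2 change of 0.42, which is 70.8% against 34.1% of all genes. PRDX6, a peroxiredoxin, ranged from 10.10 to 12.54 (median 11.75) at 1 dpn and from 12.86 to 14.05 (median 13.56) at 28 dpn, without overlap, a log2 change of 1.80 (SE 0.16, adjusted p = 2.28e-11). GLRX, glutaredoxin, rose by 1.07 (SE 0.12, adjusted p = 2.05e-09), GPX3 and GPX1 by 0.79 and 0.66, SOD1 by 0.72 and CAT by 0.37. GCLC, which starts glutathione synthesis, rose by 0.86 (SE 0.23, adjusted p = 0.00124) in its brightest probe-set, but 1 of its 4 probe-sets fell and the mean of the 4 changed by −0.19. GPX7, an enzyme of the endoplasmic reticulum, had a log2 change of −1.84 (SE 0.13, adjusted p = 6.97e-14), without overlap, and SOD2, the mitochondrial dismutase, fell by 0.78. In the fit with the actin difference the log2 change was −0.0695 for GCLC, the opposite sign.

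Most complement and coagulation genes rose, while 34.1% of all genes rose and 36.9% fell. Among complement and coagulation genes 21 of 29 tested genes rose and 2 fell (12 and 1 with the actin covariate), with a median log2 change of 0.68, and 11 of the 29 did not overlap between the stages, against 6.88% of all genes. MBL2, the mannose-binding lectin, ranged from 5.54 to 9.64 (median 7.91) at 1 dpn and from 10.14 to 13.19 (median 11.36) at 28 dpn, without overlap, a log2 change of 3.96 (SE 0.38, adjusted p = 8.68e-11). At 28 dpn its values left a gap between 11.36 and 12.70, with 8 piglets below it and 7 above. CFP, properdin, C8G, part of the membrane attack complex, and C4BPA, a complement inhibitor, rose without overlap by 2.59 (SE 0.17, adjusted p = 2.92e-14), 2.39 (SE 0.12, adjusted p = 3.57e-17) and 2.04 (SE 0.14, adjusted p = 9.63e-14). C2, CFD, C4A and C1R rose by 1.81, 1.66, 1.53 and 1.52. C5 fell by 0.65, and C3 (−0.09) and C9 (0.27) were not called.

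Acute phase genes did not rise with them. With the deposited values 3 of 15 tested genes rose and 7 fell (5 and 4 with centring and 3 and 1 with the actin covariate), with a median log2 change of −0.10. CRP, C-reactive protein, ranged from 9.68 to 14.05 (median 11.95) at 1 dpn and from 13.13 to 15.45 (median 14.51) at 28 dpn, a log2 change of 2.67 (SE 0.32, adjusted p = 1.14e-08), up from 5.45 at 94 dpc. LRG1 rose by 0.90 (SE 0.15, adjusted p = 2.56e-06). SAA2, serum amyloid A, fell by 0.86, and ORM1, haptoglobin and APCS, the serum amyloid P component, by 0.39, 0.45 and 0.65. The albumin-type plasma proteins stayed within 2-fold. ALB ranged from 15.41 to 16.46 (median 16.02) at 1 dpn and from 15.19 to 16.25 (median 15.59) at 28 dpn, a log2 change of −0.46 (SE 0.10, adjusted p = 0.000209), and APOA1, AHSG, SERPINA1 and TTR changed by −0.09, −0.41, −0.21 and 0.27. SERPINA1 changed by 0.018 with centring. These hepatocyte markers were above background on all 31 arrays. Adding the actin difference ended the calls of AHSG, ALB, SAA2, SERPINA1 and TTR.

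**Figure D3:**
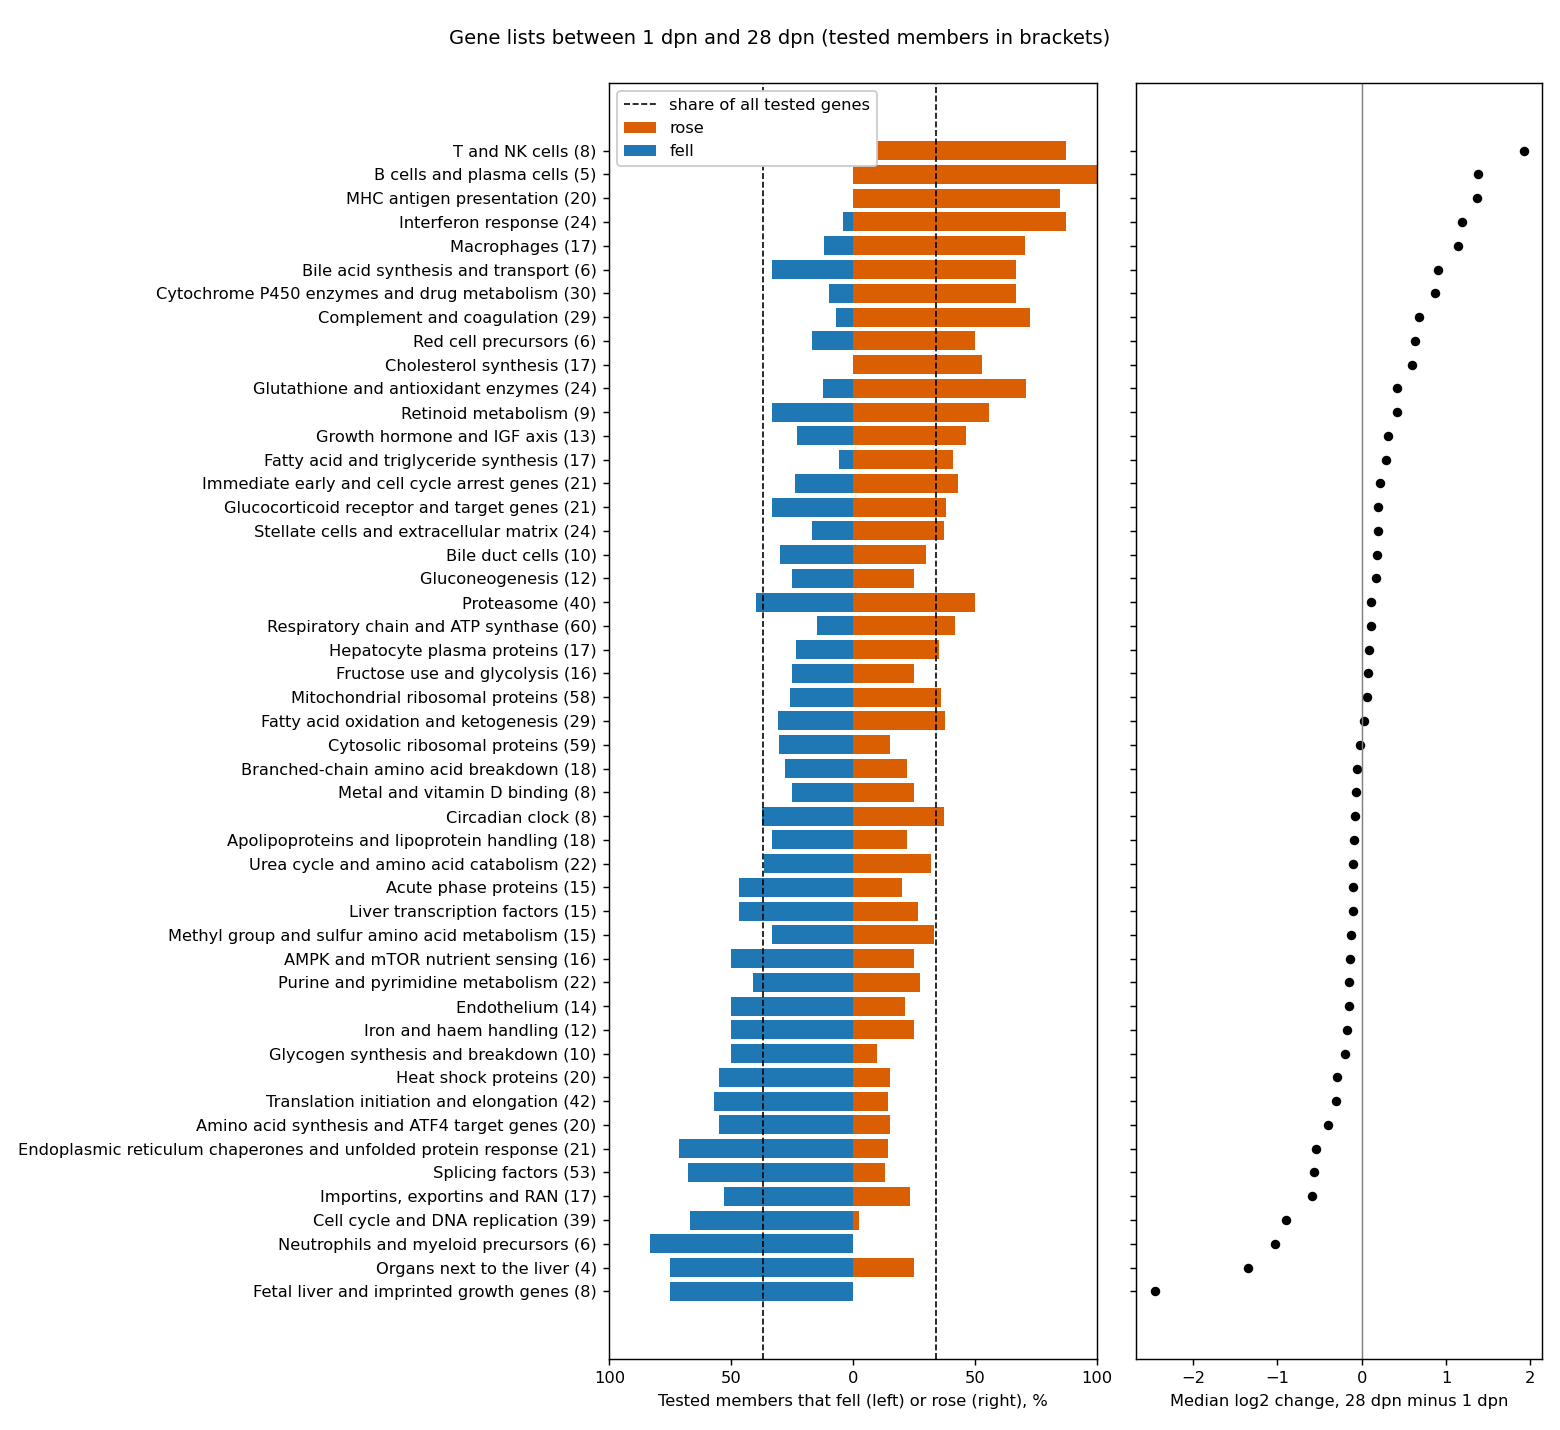
Share of the tested members of 49 gene lists that fell (left) or rose (right), with dashed lines at the shares over all tested genes (36.9% and 34.1%), and the median log2 change of each list on the right. The shares of the T and NK cell list and of the B cell list are not read against the lines, since members dim at birth entered the test only through the older stage. By median, immune lists, drug metabolism and complement stand at the top and fetal, cell cycle, splicing and endoplasmic reticulum lists at the bottom, and many lists near the middle change sign with the scaling.

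Genes of immune cells rose in most cases. Among macrophage genes 12 of 17 tested genes rose and 2 fell, against 34.1% and 36.9% of all genes, and the median log2 change was 1.14. For 7 of the 17 the arrays did not overlap and were higher at 28 dpn, against 6.88% of all genes. SIGLEC1 was dim at birth and passed the filter through the older stage, so these shares are not strictly comparable. FOLR2, a folate receptor of resident macrophages, ranged from 8.50 to 10.93 (median 9.82) at 1 dpn and from 13.61 to 14.44 (median 13.87) at 28 dpn, without overlap, a log2 change of 4.17 (SE 0.19, adjusted p = 3.39e-18) or 18-fold. FCER1G and TYROBP, adaptors of activating receptors, rose without overlap by 2.11 (SE 0.15, adjusted p = 6.01e-14) and 2.06 (SE 0.16, adjusted p = 4.69e-13). C1QA, a complement protein made by macrophages, rose by 1.14 (SE 0.13, adjusted p = 6.9e-09), and its ranges overlapped. VSIG4, a receptor of Kupffer cells, rose by 1.89. SIGLEC1, sialoadhesin, was above background on none of the newborn and on 14 of 15 older arrays, at least 2.77-fold higher. CD163 (−0.20), MARCO (0.67) and CD14 (−0.04) were not called, and MRC1, the mannose receptor, fell by 0.77. The rise was therefore not shared by all macrophage receptors. CD68 was not named on the array.

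Several T and NK cell genes were near background in the newborn, although CCL5 was above it on all 16 newborn arrays and CD3D on 13. Of 18 T and NK cell genes on the array 10 were too dim to be tested, and of the 8 tested 7 rose and none fell. A gene that is dim at birth could enter the test only through the older stage, so this share is not read against all genes. GNLY, the granule protein granulysin, was at background on all newborn arrays, with log2 signals from 3.19 to 5.69 (median 3.70) at 1 dpn and from 8.51 to 10.86 (median 9.93) at 28 dpn, at least 17.9-fold higher. CD8A, of cytotoxic T cells, ranged from 2.29 to 6.27 (median 5.24) at 1 dpn and from 6.12 to 9.06 (median 7.64) at 28 dpn, a log2 change of 2.76 (SE 0.37, adjusted p = 6.36e-08), with 5 of 16 newborn arrays above background, or 1.73 with signals raised to the background. CCL5 and CD3D rose without overlap by 2.24 (SE 0.18, adjusted p = 1.29e-12) and 2.04 (SE 0.26, adjusted p = 2.57e-08). CD3E and CD2 were not tested, and their medians were 5.75 and 5.08 at 1 dpn and 6.97 and 6.80 at 28 dpn.

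Of 8 B and plasma cell genes on the array 3 were too dim to be tested, and the 5 tested rose (3 and 0 with the actin covariate). JCHAIN, PIGR and BLNK were dim at birth and passed the filter through the older stage, so this share is not read against all genes either. The markers CD79A, MS4A1 and IGHM were not named on the array. JCHAIN, which joins immunoglobulins for secretion, ranged from 4.81 to 7.92 (median 6.28) at 1 dpn and from 8.18 to 10.02 (median 8.92) at 28 dpn, without overlap, a log2 change of 2.73 (SE 0.23, adjusted p = 3.73e-12). PIGR, the receptor that carries them across epithelia, is made by epithelial cells such as those of bile ducts and does not mark B cells. It rose by 3.04 (SE 0.16, adjusted p = 5.54e-17), with 2 probe-sets in the same direction. SDC1, which hepatocytes make too, rose by 1.37 (SE 0.14, adjusted p = 2.57e-10) in its brightest probe-set and fell in another, and BLNK rose by 1.05 (SE 0.29, adjusted p = 0.00212). CCL19, a chemokine that draws lymphocytes, ranged from 4.39 to 7.90 (median 7.15) at 1 dpn and from 9.30 to 11.15 (median 10.32) at 28 dpn, without overlap, a log2 change of 3.34 (SE 0.28, adjusted p = 7.22e-12). A fit with the actin difference lost the call of BLNK.

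Antigen presentation genes rose as well. In the MHC list 17 of 20 tested genes rose and 0 fell, against 34.1% and 36.9% of all genes. The median log2 change was 1.36. For 8 of the 20 the arrays did not overlap and were higher at 28 dpn, against 6.88% of all genes. SLA-DRA, a class II chain, ranged from 8.15 to 11.04 (median 9.43) at 1 dpn and from 11.64 to 13.14 (median 12.48) at 28 dpn, without overlap, a log2 change of 2.93 (SE 0.23, adjusted p = 1.4e-12). SLA-DQA1, SLA-DQB1 and the class I gene SLA-3 rose by 2.79, 2.90 and 2.54, also without overlap. The SLA genes are polymorphic and alike, so the value of each single gene is uncertain. TAP1, which loads peptides onto class I, rose by 1.79, whereas B2M (0.07, in the brightest of 9 probe-sets that went both ways) and CD74 (0.19) were not called. The mean level of the list at 1 dpn ran from 9.45 on HP 27 to 10.97 on HP 32 and at 28 dpn from 11.09 on HP 33 to 11.97 on HP 46, without overlap.

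Interferon-responsive genes rose with few exceptions in the deposited values. Here 21 of 24 tested genes rose and 1 fell (9 and 1 with the actin covariate), with a median log2 change of 1.19. That is 87.5% up, beside 34.1% of all genes. IRF7 and CXCL9 were dim at birth and passed the filter through the older stage, so these shares are not strictly comparable. ISG12(A), an interferon-induced mitochondrial protein, ranged from 8.90 to 11.95 (median 10.41) at 1 dpn and from 13.18 to 14.96 (median 14.25) at 28 dpn, without overlap, a log2 change of 3.85 (SE 0.27, adjusted p = 5.66e-14). ISG15, a ubiquitin-like modifier, changed by 3.30 (SE 0.38, adjusted p = 3.41e-09), without overlap, from 8.19 at 94 dpc to a peak at 28 dpn and 10.63 at 188 dpn. IRF7, the factor that amplifies the response, and CXCL9, a chemokine for T cells, rose without overlap by 2.99 (SE 0.39, adjusted p = 4.03e-08) and 2.59 (SE 0.29, adjusted p = 2.1e-09). MX1, an antiviral GTPase, rose by 2.32 (SE 0.35, adjusted p = 5.9e-07), and its ranges overlapped. EIF2AK2, the RNA sensor PKR, fell by 1.60 (adjusted p = 3.57e-07) and was the only fall. Without the newborn arrays HP 20, HP 25, HP 27 and HP 28, 16 rose and 1 fell. The call of IRF7 was lost when the actin difference was added to the fit.

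Granulocyte genes fell with the deposited values, and red cell genes were mixed. Genes of neutrophils and their precursors numbered 6 in the test, of which 5 fell and 0 rose, against 36.9% and 34.1% of all genes. Their median log2 change was −1.03. NPG4, a protegrin of granulocytes, ranged from 8.38 to 12.78 (median 11.20) at 1 dpn and from 7.38 to 10.73 (median 9.63) at 28 dpn, a log2 change of −1.65 (SE 0.42, adjusted p = 0.000755), and its level had been 14.05 at 94 dpc. LTF, lactoferrin, S100A9 and PR39, an antibacterial peptide, changed by −1.20 (SE 0.28, adjusted p = 0.000338), −0.84 (SE 0.37, adjusted p = 0.0399) and −0.86 (SE 0.33, adjusted p = 0.0211), and S100A8 by −0.40 without a call. ARG1, on the same list, is mainly a hepatocyte enzyme. Quantile normalization and centring each left 3 falls and no rise, and the actin difference in the fit left 1 fall. Of 6 red cell genes 3 rose. HBM, a globin, ALAS2, the haem enzyme of red cell precursors, and AHSP, a globin chaperone, changed by 2.01 (SE 0.19, adjusted p = 4.84e-11), 1.47 (SE 0.19, adjusted p = 2.35e-08) and 1.17 (SE 0.29, adjusted p = 0.000564), from levels at 94 dpc of 12.36, 12.78 and 12.89. HBB fell by 0.84, with a median of 8.10 at 1 dpn. AHSP, ALAS2, LTF and S100A9 were no longer called once the actin difference entered the fit. In that fit the log2 change was 0.11 for NPG4 and 0.74 for PR39, the opposite sign.

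**Figure D4:**
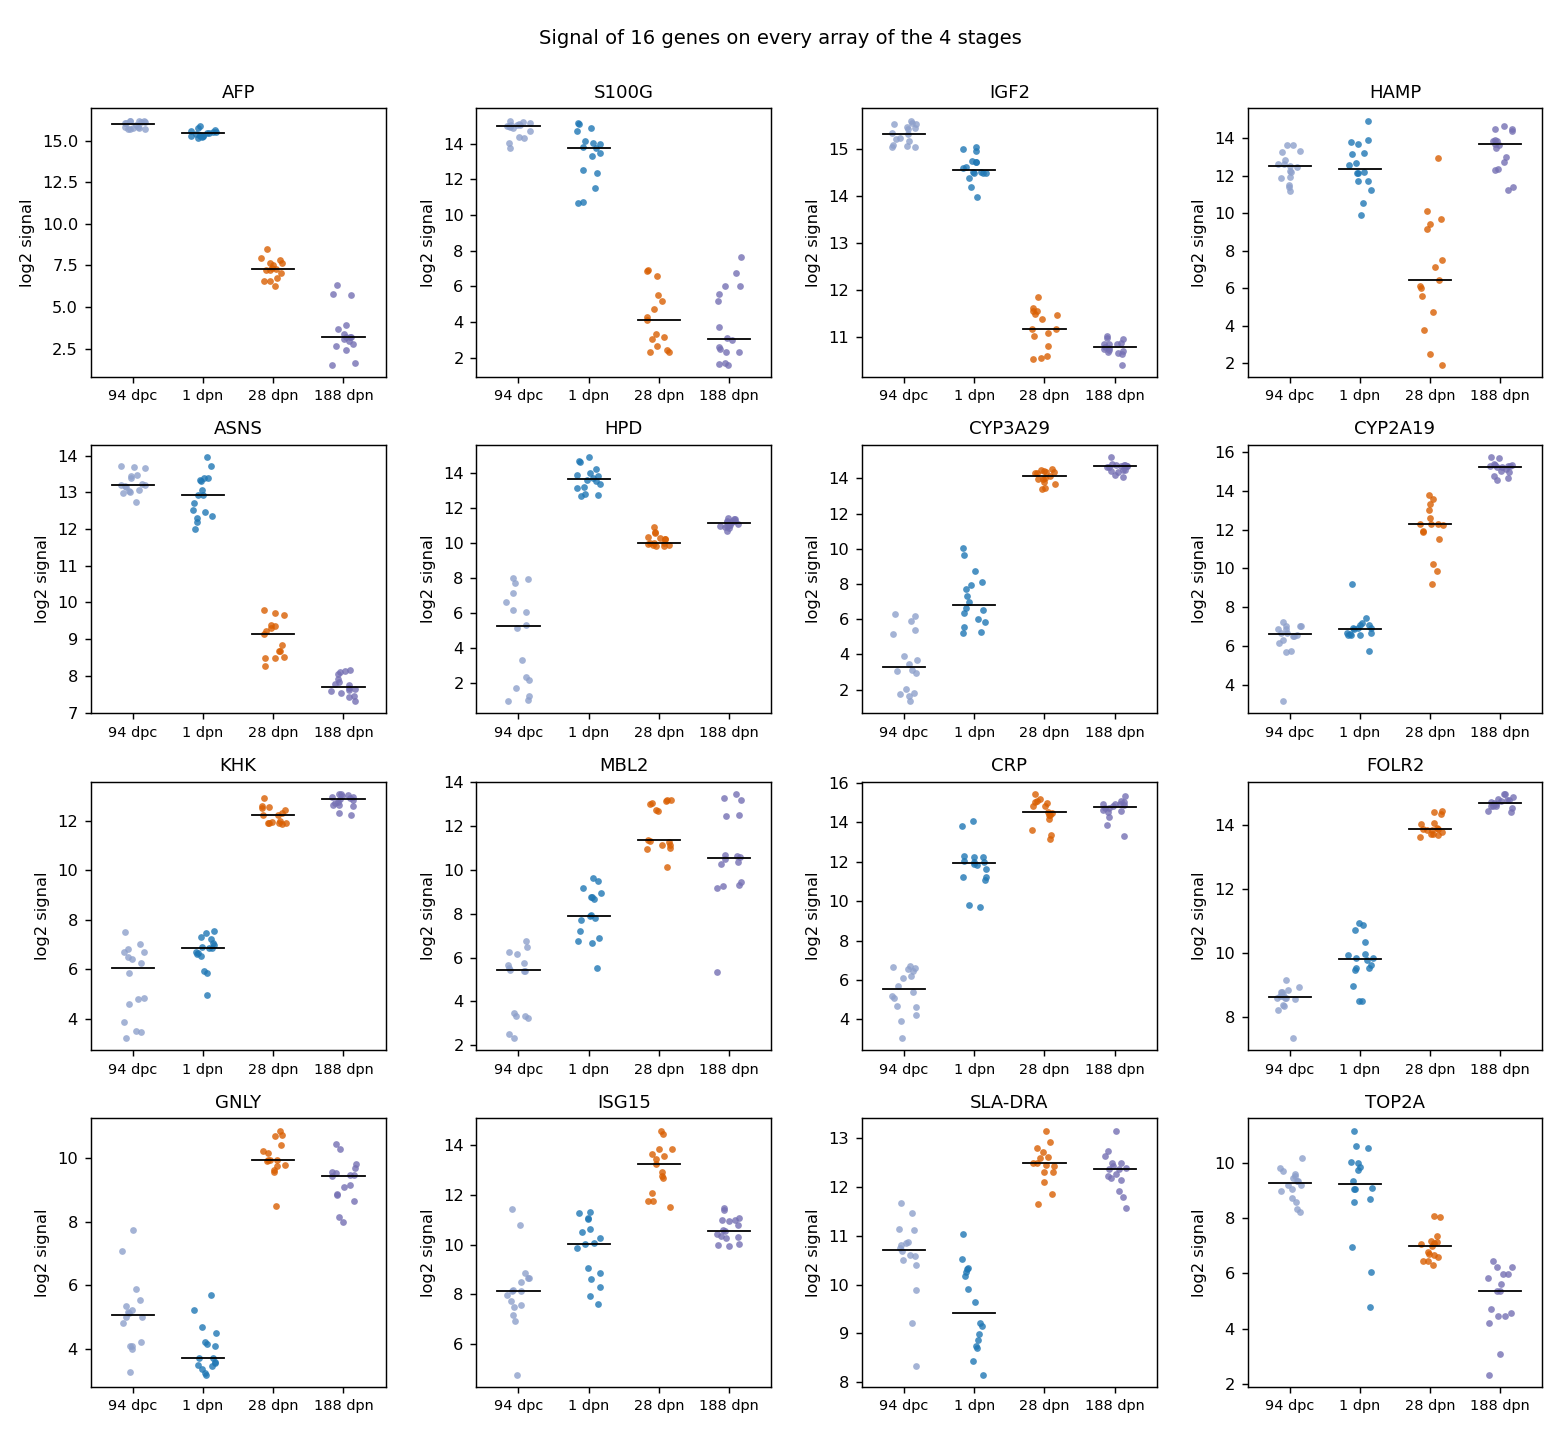
Log2 signal of 16 genes on every array of the 4 stages, in order of age, with a line at the median of each stage; each panel has its own vertical axis. AFP, IGF2, S100G and ASNS stand high before and at birth and low afterwards, CYP3A29, KHK, FOLR2 and GNLY the reverse, HPD peaks at 1 dpn, HAMP dips at 28 dpn and ISG15 peaks there.

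Endothelial genes fell more often than they rose with the deposited values. Of 14 tested genes 3 rose and 7 fell, against 34.1% and 36.9% of all genes. The counts were 5 and 6 with quantile normalization and 1 and 1 with the actin covariate. KDR and FLT1 were dim at 28 dpn, with means of 6.06 and 5.70 beside array medians of 6.69 to 7.01. These shares are therefore not strictly comparable. The median log2 change was −0.15, but it was 0.05 with quantile normalization, 0.07 with centring and 0.06 with the actin difference in the fit. KDR and FLT1, the receptors for VEGF, and TIE1, another endothelial receptor, changed by −1.76 (SE 0.29, adjusted p = 2.39e-06), −1.71 (SE 0.27, adjusted p = 1.56e-06) and −1.24 (SE 0.18, adjusted p = 3.44e-07), and KDR and FLT1 were each above background on 10 of 15 older arrays. CDH5, the cadherin of endothelial junctions, rose by 1.58 (SE 0.12, adjusted p = 2.71e-13) in its brighter probe-set, without overlap, and fell by 0.46 in the other. PECAM1 rose by 0.54 (SE 0.09, adjusted p = 2.16e-06) in 1 probe-set, fell by 0.80 in another, and its mean over both changed by −0.13. When the fit held the actin difference, FLT1, PECAM1 and TIE1 no longer passed. In that fit the log2 change was 0.41 for KDR, the opposite sign.

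In the matrix and stellate cell list 9 of 24 tested genes rose and 4 fell, with a median log2 change of 0.19. COL6A3, a chain of collagen VI, ranged from 7.49 to 9.35 (median 8.72) at 1 dpn and from 9.76 to 10.92 (median 10.19) at 28 dpn, without overlap, a log2 change of 1.61 (SE 0.16, adjusted p = 2.56e-10). BGN and DCN, small proteoglycans, rose by 1.39 (SE 0.20, adjusted p = 2.99e-07) and 1.16 (SE 0.22, adjusted p = 1.62e-05), and SPARC and PDGFRB, the receptor of stellate cells, by 1.26 and 0.95. POSTN, periostin, and COL3A1, collagen III, changed by −1.62 (SE 0.24, adjusted p = 5.25e-07) and −1.31 (SE 0.32, adjusted p = 0.000588), while COL1A2 (−0.22) and ACTA2 (0.09) were not called. Of 10 bile duct genes 3 rose and 3 fell (5 and 2 with centring and 3 and 1 with the actin covariate). AQP1, a water channel of ducts and endothelium, rose without overlap by 1.53 (SE 0.14, adjusted p = 4.1e-11). CLDN7 rose by 0.64, and its ranges overlapped. EPCAM, the adhesion molecule of duct and progenitor cells, and CLDN4 changed by −1.02 (SE 0.15, adjusted p = 3.44e-07) and −0.64 (SE 0.14, adjusted p = 0.000113). KRT19, a duct keratin, had a log2 change of 0.19.

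Defining markers of pancreas and gut were at or near background on most arrays. CPA1, of pancreas, was above background on 2 of 16 and 3 of 15 arrays, and FABP2, of gut, on 2 of 16 and 3 of 15. ADIPOQ, of fat, was above background on 6 arrays of each stage, and CKM, of muscle, on 13 of 16 and 8 of 15. Among the 4 tested genes of that list AMY2, CDH17 and VIL1 fell, by 2.21, 1.84 and 0.86, and FABP4 rose by 1.44 (SE 0.37, adjusted p = 0.001). AMY2 is an amylase, CDH17 and VIL1 are known from gut epithelium, and FABP4 from fat and vessels. The actin difference as a covariate ended the calls of CDH17 and VIL1.

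Cell cycle and DNA replication genes fell. Here 1 of 39 tested genes rose and 26 fell, with a median log2 change of −0.89, and none fell without overlap. That is 66.7% down, beside 36.9% of all genes. MCM4 was dim at 28 dpn and passed the filter through the newborn stage, so these shares are not strictly comparable. TOP2A, which untangles DNA, ranged from 4.78 to 11.17 (median 9.23) at 1 dpn and from 6.30 to 8.07 (median 7.00) at 28 dpn, a log2 change of −1.98 (SE 0.44, adjusted p = 0.000169). MCM4, of the replicative helicase, TYMS, thymidylate synthase, and RRM2, which makes deoxynucleotides, changed by −2.13 (SE 0.38, adjusted p = 8.64e-06), −1.93 (SE 0.31, adjusted p = 1.43e-06) and −1.87 (SE 0.47, adjusted p = 0.000623). MCM4 was above background on 7 of 15 older arrays, and its change was −1.61 with signals raised to the background. The mitotic genes CCNB1, CDC20, AURKA and FOXM1 fell by 1.37, 1.38, 1.25 and 1.29. MCM5 (−0.18), STMN1 (−0.12) and CDK2 (0.00) were not called, and RPA3 rose by 0.57.

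Most of the newborns below the older range were the same few animals. RRM2 was 7.34, 7.29 and 7.77 on HP 25, HP 27 and HP 28, within or below the range of the older stage (7.56 to 10.30), and between 9.72 and 12.38 on the other 13 newborns. The mean level of the cell cycle list on HP 27, HP 25 and HP 28 was 8.02, 8.20 and 8.31, and every other newborn was at 8.98 or above, against 8.22 to 9.32 at 28 dpn. Leaving out these 3 and HP 20 raised the number of falls to 33 of 39 and the fall of TOP2A to 2.73 on the log2 scale. As these 3 were the lowest newborns on this list, leaving them out raises its newborn mean by construction. The larger falls are therefore not separate evidence.

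HP 20, HP 25, HP 27 and HP 28 lay at the same end of the first principal component of the newborn arrays, which held 20.1% of the variance, with scores of 55.53, 31.49, 53.42 and 33.28, and the next highest newborn was at 6.93. Single genes set only some of the 4 apart. SDS, serine dehydratase, a gene of amino acid use in fasting, was 14.37, 13.03 and 11.89 on HP 20, HP 27 and HP 28, and 7.80 on HP 25, while the older piglets lay between 7.39 and 9.31. FKBP5 was highest on HP 20, HP 27 and HP 28, at 10.99, 10.29 and 9.85. IRF7 was lowest on HP 27, at 3.02. The labels give nothing that sets these 4 animals apart. Without them 3713 probe-sets rose and 5502 fell.

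Immediate early and cell cycle arrest genes were mixed, with 9 of 21 up and 5 down (4 and 1 with the actin covariate). EGR1 and FOS, which respond within minutes to stimuli, rose by 1.33 (SE 0.33, adjusted p = 0.000703) and 0.70 (SE 0.22, adjusted p = 0.00554), but EGR1 fell in 1 of its 3 probe-sets. TOB1 and CDKN2C, which restrain the cycle, and CDKN1A, the inhibitor p21, changed by −1.52 (SE 0.14, adjusted p = 6.1e-11), −1.54 (SE 0.42, adjusted p = 0.00164) and −0.71 (SE 0.17, adjusted p = 0.00057), with TOB1 free of overlap. CDKN2C was above background on 6 of 15 older arrays, and its change was −1.14 with signals raised to the background. Adding the actin difference ended the calls of CDKN1A, CDKN2C, EGR1 and FOS.

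Genes of RNA splicing, translation and nuclear transport fell more often than they rose. The shares over all genes were 36.9% down and 34.1% up. PRPF38B and KPNA3 were dim at 28 dpn, with means of 6.26 and 6.58, so the counts are not strictly comparable with these shares. Of 53 splicing factors 7 rose and 36 fell, with a median log2 change of −0.56, and 6 rose and 36 fell with quantile normalization, 13 and 28 with the arrays centred on the median, and 5 and 24 with the actin difference in the fit. SF3B1, of the U2 particle, HNRNPH1 and PRPF38B changed by −1.50 (SE 0.17, adjusted p = 2.24e-09), −1.28 (SE 0.14, adjusted p = 1.42e-09) and −1.39 (SE 0.16, adjusted p = 3.8e-09), and HNRNPL rose by 1.57 (SE 0.36, adjusted p = 0.000231). Of 42 initiation and elongation factors 6 rose and 24 fell (3 and 25 with quantile normalization, 12 and 16 with centring and 4 and 14 with the actin covariate), and 7 of the 42 fell without overlap, against 5.56% of all genes. EIF1AX, EIF3B and EIF2S2, which set up the start of translation, fell without overlap, with log2 changes of −2.11 (SE 0.17, adjusted p = 1.09e-12), −1.53 (SE 0.12, adjusted p = 1.18e-12) and −1.41 (SE 0.15, adjusted p = 6.38e-10). Of 17 genes of nuclear transport 4 rose and 9 fell (7 and 9 with centring and 1 and 7 with the actin covariate), among them KPNA3 (−2.03), CSE1L (−1.62) and TNPO3 (−1.34), all 3 without overlap. A fit with the actin difference lost the call of HNRNPL.

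Genes of purine and pyrimidine metabolism went both ways. Of 22 tested genes 6 rose and 9 fell (2 and 7 with the actin covariate), although the median log2 change turned from −0.15 to 0.07 with centring. GART and PAICS, of purine synthesis, changed by −1.54 (SE 0.16, adjusted p = 4.57e-10) and −1.04 (SE 0.11, adjusted p = 7.68e-10), with all 3 and both of their probe-sets lower, and PPAT, ATIC and GMPS fell by 0.79, 0.79 and 0.73. UOX, which breaks down uric acid, and UPB1, which finishes pyrimidine breakdown, rose by 1.69 (SE 0.30, adjusted p = 7.75e-06) and 1.56 (SE 0.28, adjusted p = 1.21e-05), and HPRT1, which salvages purines, by 0.64. The call of UPB1 was lost when the actin difference was added to the fit.

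Ribosomal and respiratory genes had no direction that held under all scalings. Of 59 cytosolic ribosomal protein genes 9 rose and 18 fell with the deposited values, whereas 6 rose and 30 fell with quantile normalization, 34 and 7 with the arrays centred on the median, and 0 and 5 with the actin difference in the fit. RPL22L1 was the exception in size, ranging from 13.05 to 14.10 (median 13.53) at 1 dpn and from 11.18 to 11.77 (median 11.54) at 28 dpn, without overlap, a log2 change of −2.08 (SE 0.10, adjusted p = 1.34e-17), and RPL7L1 and RPL4 fell by 0.95 and 0.74. Of 60 genes of the respiratory chain and ATP synthase 25 rose and 9 fell, whereas 11 rose and 19 fell with quantile normalization, 38 and 7 with the arrays centred on the median, and 3 and 7 with the actin difference in the fit. COX7A1, the muscle and heart form of a cytochrome oxidase subunit, rose without overlap by 1.64 (SE 0.18, adjusted p = 2.46e-09), and NDUFS1, the largest subunit of complex I, had a log2 change of −1.34 (SE 0.09, adjusted p = 1.78e-14), also without overlap. CYCS, cytochrome c, changed by −1.43 (SE 0.22, adjusted p = 6.9e-07). Of 40 proteasome genes 20 rose and 16 fell, whereas 15 rose and 17 fell with quantile normalization, 22 and 12 with the arrays centred on the median, and 10 and 8 with the actin difference in the fit. PSMD14 and PSMD12, of the cap of the proteasome, changed by −1.28 and −1.20 without overlap. For mitochondrial ribosomal proteins 21 of 58 rose and 15 fell (33 and 6 with centring and 8 and 4 with the actin covariate), with MRPL14 up by 1.11 and MRPL1 changing by −1.26, both without overlap. COX7A1 was no longer called once the actin difference entered the fit.

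The lists that the study drew for HP offspring between these stages were chosen on these animals, so they are not independent evidence. Of 11 tested genes of its oxidative phosphorylation list 7 rose and none fell, with NDUFS7 at 0.63 (SE 0.11, adjusted p = 3.38e-06) and NDUFB1 at 0.51 (SE 0.12, adjusted p = 0.000346), while NDUFA7, ATP6V1D, ATP6V1F and ATP6V1H were not called. With the actin difference in the fit none of the 11 was called. TCIRG1 rose in 1 probe-set and fell in another. Of 7 tested genes of its glucocorticoid list 1 rose (PCK2) and 6 fell (0 and 3 with the actin covariate), with MAP3K7, a kinase of inflammatory signalling, at −1.86 (SE 0.15, adjusted p = 1.01e-12) without overlap, and NCOA1 and VCAM1 at −0.59 and −0.53. Of its growth hormone list FOS rose and PIK3CG, at −0.01, was not called.

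Single genes outside the lists were among the largest changes. ABCB1, the drug exporter P-glycoprotein, was at background on all 15 older arrays in its dimmer probe-set, at least 5.17-fold lower, and fell by 1.01 in the brighter one. PLAC8, a small protein of leukocytes, and IL13RA1, a receptor chain for interleukin 13, changed by 3.16 (SE 0.27, adjusted p = 1.08e-11) and −3.04 (SE 0.15, adjusted p = 1.14e-17) without overlap. LOC100621559 rose in all 6 of its probe-sets, by 3.56 (SE 0.21, adjusted p = 1.61e-15) in the brightest, and LOC100518620 and LOC100524999 rose by 3.05 and 3.17. One probe-set named EF1ALPHA, elongation factor 1 alpha, rose by 4.54, from a mean of 9.62 to 14.16, with 9.24 at 94 dpc and 14.20 at 188 dpn. The other 5 of that name changed by −0.56 to 0.33. The first 18S set, with means of 9.04 at 1 dpn and 13.60 at 28 dpn, had a like rise, and whether the 2 are linked was not tested.

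Probe-sets of the same gene often parted. Of 1345 genes with several tested probe-sets, 199 (14.8%) had at least 1 that rose and 1 that fell. The brightest probe-set had a median log2 change of −0.11 and the dimmest −0.60, and the dimmest lay below the brightest in 982 genes (73%). In 138 genes the brightest rose and the dimmest fell, against 25 the other way. Among the 15 genes with the largest falls without overlap, 11 had several probe-sets, and in 5 of those (MTHFD1, NFIA, SEC31A, PDIA4 and SMPD1) the brightest was not called. MTHFD1, a folate enzyme, changed by 0.20 in its brightest probe-set and by −3.90 and −2.23 in the others. SEC31A, a coat protein of transport vesicles, changed by 0.10, −2.99 and −3.13. HSPA9, the mitochondrial HSP70, changed by −0.53, −0.55 and −3.91, and CLTC, the clathrin heavy chain, by −1.10 and −3.79. For AFP, HPD, ASNS and IL13RA1 only 1 probe-set was tested.

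**Figure D5:**
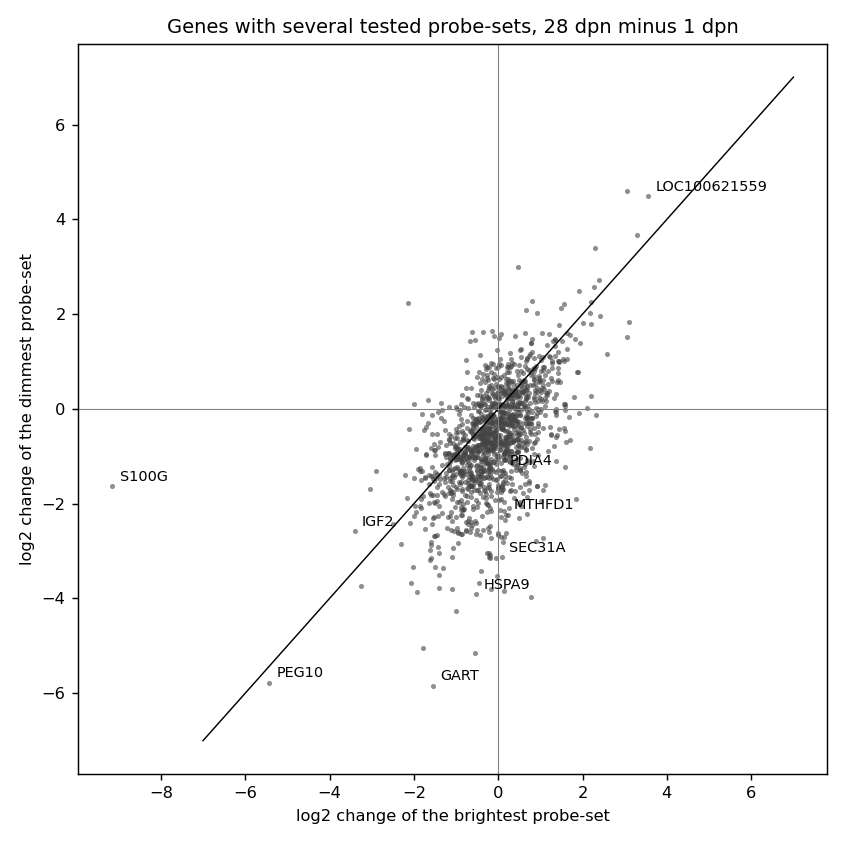
Log2 change from 1 dpn to 28 dpn of the brightest (horizontal axis) and the dimmest (vertical axis) tested probe-set of 1345 genes, with the diagonal of equal change. Most points lie below the diagonal, with a median of −0.11 for the brightest and −0.60 for the dimmest, and MTHFD1, SEC31A and PDIA4 have no called change in the brightest.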

How the data were processed

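Of 63 pig expression arrays, each with liver RNA of an HP animal, the 16 at 1 dpn and the 15 at 28 dpn were compared. The deposited values are log2 signals, which per the submitters' processing notes the authors made with GCOS 1.1.1. On the linear scale the 2% trimmed mean of each array was 500, and signals under 1 had been set to 0 on the log2 scale. No further scaling was applied. Of 24123 probe-sets 188 were controls, and of the other 23935, 10073 had 1 gene symbol, 198 several and 13664 none. Probe-sets entered the test where, in 1 stage or both, 50% or more of the arrays had them above that array's 50th percentile, which left 13078. They were fitted with limma 3.58.1 in R 4.3.3 with the stage as the only term, and p-values were adjusted over all of them by the Benjamini-Hochberg method. A gene was read from its probe-set with the highest mean over the 31 arrays. Arrays were called non-overlapping where the ranges of the stages did not meet. Background was the 95th percentile, on each array, of the 23 controls that have no target in pig RNA. Where a gene lay at background on all arrays of a stage, the fold is a lower bound set at that level. Where fewer than 50% of the arrays of a stage were above it, the change was also computed with signals raised to it, a choice made after the values were seen.

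Control signals were compared by permutation with 100000 resamples in Python 3.11.15 with scipy 1.17.1. Figures were drawn with matplotlib 3.10.9. The genes named were up to 4 members of each list with the largest called changes, 15 rises and 15 falls without overlap, up to 10 at background at 1 stage, cell type markers and the study's lists. Other list members named were chosen after their values were seen, and the members and lists were chosen with earlier results of these data known. Alternatives were other filters, scalings, weights, tests, thresholds and probe-set choices, covariates for the controls, and arrays left out. The scripts were tested on simulated data. The number of arrays limits the precision.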

Additional observations from a re-analysis of the deposited data

How the results depend on the processing

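Of the 13078 probe-sets tested, 9375 were called. With a filter at the 75th percentile of an array 5321 of 6939 were called, 2659 up and 2662 down. With the actin 3′ minus 5′ difference as a covariate 4686 were called, 1764 up and 2922 down, and with a 2-fold change asked for as well 3362, 1058 up and 2304 down. Called genes of the lists numbered 670 of 971, 327 with the actin covariate and 251 at 2-fold. The other fits gave between 2900 and 5169 rises and between 4291 and 7931 falls, the latter without a filter, where 23935 probe-sets were tested.

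Among 238 named genes 3538 of 3738 recomputed changes kept their direction and their side of the threshold, 158 lost a call, 29 gained one and 13 changed sign. With the actin covariate 70 calls were lost and the sign turned to −0.0695 for GCLC, 0.41 for KDR, −0.0489 for MSMO1, 0.27 for MTR, 0.11 for NPG4, 0.30 for PHKG2, 0.74 for PR39 and −0.64 for SQLE on the log2 scale. Centring turned SERPINA1 to 0.018. The mean over a gene's probe-sets turned GCLC to −0.19, PCK2 to −0.43, PECAM1 to −0.13 and TCIRG1 to −0.039. The cause was not tested. Of 104 counts of list members that rose or fell, 68 moved by over 1.5 times with the actin covariate, 29 with centring, 16 with the dap and thr covariate, 10 with quantile normalization, 9 with the 7 matched older arrays and 10 without HP 20, HP 25, HP 27 and HP 28.

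The actin difference nearly separates the stages. Signals under the background have no order, and the values of near-identical genes are uncertain. No paired analysis was possible because the array numbers do not pair animals across the stages.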
